A study of Mus musculus with 11 samples.

Results

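The 9 genes described here, Nfasc, Cntn1, Cntnap1, Cntnap2, Ank3, Sptbn4, Scn8a, Kcna1 and Kcna2, encode adhesion molecules, scaffolds and channels of the node of Ranvier and its neighbouring domains. They were chosen by name for what is known of their products, with earlier results of these data known, and all 9 were found among the 16228 genes of the deposited table, where Sptbn4 stands under its older symbol Spnb4. Their expression was read from bulk RNA sequencing of 4 mm punches of mouse cerebral cortex at postnatal day 30 (P30), in a study of PRKCI and PRKCZ, the atypical members of the protein kinase C family, in the oligodendrocyte lineage. There were 4 libraries from Ng2 Cre+ Prkci f/f mice (Prkci cKO), 3 from Ng2-Cre+ Prkcz f/f mice (Prkcz cKO) and 4 from Control mice. The labels give the genotype Pkcz f/+ for Control replicates 1 and 2 and Pkcz f/f for Control replicates 3 and 4, so as labelled every control carried a floxed Prkcz allele, and their labels name no Cre. Ng2-Cre is driven by regulatory sequence of the gene of the NG2 proteoglycan, which marks oligodendrocyte precursors and is also made by pericytes. No Prkci-line control and no control labelled with Cre was analysed here, so loss of a kinase, the presence of Cre and the mouse line cannot be told apart.

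A myelinated axon is divided into domains along its length. At the node, sodium channels that renew the action potential are held by ankyrin-G and beta-IV spectrin. At the paranode on either side, the loops of the myelin sheath are anchored to the axon by a complex of contactin-1 and Caspr on the axon and a neurofascin isoform (NF155) on the oligodendrocyte. Beyond it, at the juxtaparanode, Caspr2 and Kv1 potassium channels lie under the compact myelin. Nfasc is the gene in this group with a well-known product on both sides of the junction, since neurons make the isoform NF186 of the node and axon initial segment. The other genes are known here mainly for their neuronal products. The table gives 1 value per gene, so the isoforms cannot be told apart.

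Kcna1 and Kcna2 are paralogs, as are Cntnap1 and Cntnap2, and reads of paralogs could in principle be confused. The following stretches are the most alike 100-base windows of the coding sequences of each pair, shown because 100 bases is the length of the reads; they are read 5′ to 3′ on the coding strand from GENCODE M21 transcripts (GRCm38), with capitals at the bases that differ.
Kcna1: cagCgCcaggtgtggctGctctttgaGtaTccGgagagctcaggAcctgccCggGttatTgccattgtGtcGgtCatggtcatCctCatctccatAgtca
Kcna2: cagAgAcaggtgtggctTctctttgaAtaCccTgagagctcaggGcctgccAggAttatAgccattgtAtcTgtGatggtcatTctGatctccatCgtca
Cntnap1: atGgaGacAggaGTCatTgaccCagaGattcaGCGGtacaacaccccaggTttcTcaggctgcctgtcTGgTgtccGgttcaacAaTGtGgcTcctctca
Cntnap2: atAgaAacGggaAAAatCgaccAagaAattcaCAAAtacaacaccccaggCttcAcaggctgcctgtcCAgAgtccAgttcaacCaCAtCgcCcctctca
Even in these windows, coding bases 448 to 547 of Kcna1 and 436 to 535 of Kcna2 differ at 16 positions. Over the whole coding sequences of this pair, the longest identical run found was 20 bases. Cntnap1 (coding bases 3568 to 3667) and Cntnap2 (3475 to 3574) differ at 24 positions. Their longest identical run over the whole coding sequences was also 20 bases. Reads from the coding sequence of one paralog of a pair thus carry differences from the other.

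Nfasc, the gene that changed, lies on the minus strand of chromosome 1 (chr1:132564690-132741797) with 10 annotated transcripts in GENCODE M21. RefSeq promoter windows (GRCm38.p6) were found for 6 of the 9 genes. The window shown for Nfasc, chr1:132707327-132707576 on the minus strand, is the 250 bases before a RefSeq start that is also the start of 1 of the 10 GENCODE transcripts. This start lies inside the gene, downstream of its 5′ end at 132741797. With 1 value per gene, the start used by the measured Nfasc RNA cannot be told. Capitals mark the letters CANNTG, the core of the sites of bHLH factors such as OLIG2.
Nfasc: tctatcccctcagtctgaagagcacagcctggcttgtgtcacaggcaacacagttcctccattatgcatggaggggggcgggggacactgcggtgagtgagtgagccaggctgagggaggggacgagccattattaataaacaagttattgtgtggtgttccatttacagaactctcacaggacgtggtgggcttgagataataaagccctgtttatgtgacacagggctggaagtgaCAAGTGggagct
It holds CANNTG, which reads the same on both strands, once. It does not hold ACAANG on either strand, the letters searched as the core of SOX sites. Among 32817 windows of this length, 66.2% held CANNTG and 36.3% held ACAANG.

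The other genes lie elsewhere in the genome (GRCm38, GENCODE M21). Cntn1 is at chr15:92051165-92341967 and Scn8a at chr15:100869858-101045938, both on the plus strand. Cntnap1 is at chr11:101170523-101190724 (plus), Cntnap2 at chr6:45059357-47304213 (plus) and Kcna1 at chr6:126640397-126646384 (minus). Ank3 is at chr10:69398773-70027438 (plus), Sptbn4 at chr7:27356383-27447686 (minus) and Kcna2 at chr3:107101146-107115005 (plus). The strand setting of the read counting is not stated. Nfasc overlaps the antisense gene Gm10538, and Cntnap1 overlaps Plekhh3 and Ccr10 on the opposite strand, so part of their reads could have been assigned otherwise. Cntnap2 spans many small gene models, and Sptbn4 overlaps Gm20479 on its own strand.

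Of the targeted genes, Prkci was 65.0 to 68.3 in Prkci cKO libraries against 85.3 to 90.7 in Control (log2 change -0.39, limma adjusted p = 9.84e-04), and Prkcz was 262 to 292 in Prkcz cKO libraries against 298 to 347 in Control (log2 change -0.22, not called, adjusted p = 0.0966). The libraries had an effective depth, read from the steps between low values, of 14740000 to 28170000 reads, with Prkcz cKO replicate 3 the shallowest. That replicate also had the lowest value of all 11 libraries for each of the 9 genes. In it, 841 genes whose longest coding transcript has at least 8000 bases lay lower relative to 2914 genes under 2000 bases, by a median log2 difference of -0.44, against -0.08 in Prkcz cKO replicate 2, -0.03 in Control replicate 4 and 0.04 to 0.11 in the other libraries. Of the genes described here 6 of 9 have such long transcripts, compared with 6.27% of the tested genes with a known length. Markers of neurons and oligodendrocytes were present in every library. Of 5 Schwann cell markers 3 were in the table, with a summed level of 4.46 to 5.70 in Prkci cKO, 3.18 to 4.78 in Prkcz cKO and 4.67 to 17.7 in Control libraries. Most of the Control sum was Egr2, which neuronal activity also induces, at 3.15 ± 0.371 (SD, n = 4) in Prkci cKO, 2.03 ± 0.592 (SD, n = 3) in Prkcz cKO and 10.5 ± 5.85 (SD, n = 4) in Control. Prx averaged 1.69 in Prkci cKO, 1.55 in Prkcz cKO and 1.59 in Control, and Ncmap averaged under 1 in each group.

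**Figure D1:**
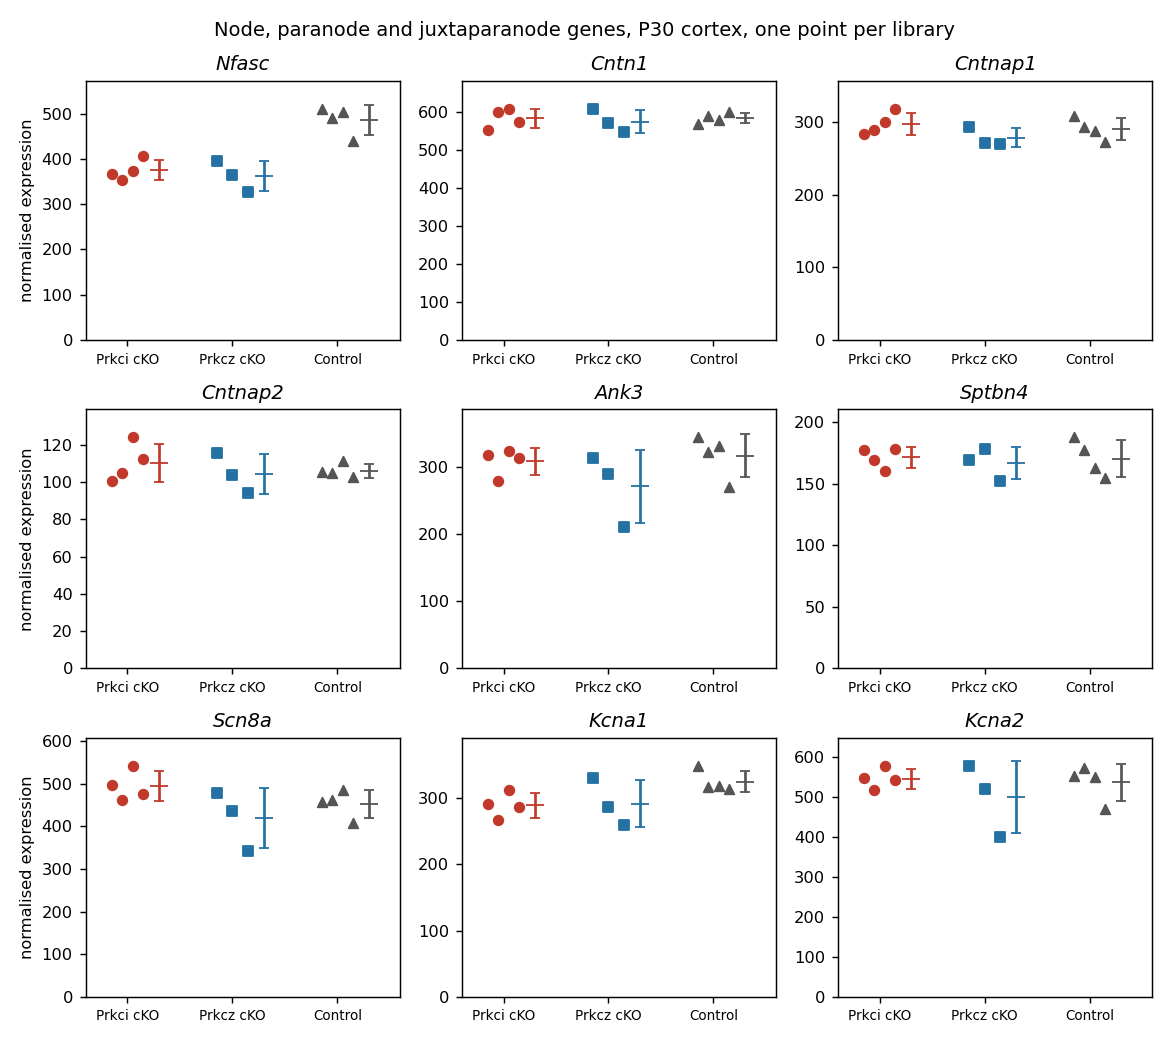
Normalised expression (y axis, from 0) of the 9 genes in each library, with Prkci cKO, Prkcz cKO and Control from left to right; points are libraries and bars are mean ± SD (n = 4, 3 and 4). All 7 Nfasc points of the knockouts lie below the 4 Control points, and the lowest point of each panel is a Prkcz cKO library.

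Values are normalised expression as deposited, with their scaling not stated and no stated division by gene length, so levels are compared between libraries and not between genes. Changes are differences of log2(value + 0.5) from limma, and a gene is called when its p-value, adjusted over all tested genes, is under 0.05. Nfasc was lower in both knockouts, and it was the only one of the 9 genes called. Its normalised expression was 367.44, 353.74, 372.8 and 405.81 in Prkci cKO libraries, and 394.38, 365.56 and 327.62 in Prkcz cKO libraries, against 510.92, 489.67, 503.35 and 438.59 in Control libraries. Every knockout library was below every Control library, and the ranges of the knockouts overlapped each other. The means were 375 ± 22.1 (SD, n = 4) in Prkci cKO, 363 ± 33.5 (SD, n = 3) in Prkcz cKO and 486 ± 32.6 (SD, n = 4) in Control.

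In Prkci cKO against Control, Nfasc fell by 0.37 on the log2 scale (SE 0.0656, 95% interval -0.51 to -0.23, limma adjusted p = 0.0102), a change of -22.7%. This was 1 of the 9 genes called lower, where 1.51% of the 14330 tested genes were called lower and 1.61% in either direction at an adjusted p under 0.05. In Prkcz cKO against Control, Nfasc fell by 0.42 (SE 0.0709, 95% interval -0.58 to -0.27, limma adjusted p = 0.0215), a change of -25.4%. Again 1 of the 9 genes was called lower, where 0.621% of tested genes were called lower and 0.649% in either direction. These comparisons share their Control libraries and are not independent of each other. Between Prkci cKO and Prkcz cKO the log2 difference of Nfasc was 0.05 (95% interval -0.10 to 0.20, limma adjusted p = 0.749), and none of the 9 genes was called, where 0.300% of tested genes were. At an unadjusted p under 0.05, Scn8a was the only one of the 9 in that comparison, beside 2290 of the 14330 tested genes.

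The Nfasc call rested on some of the libraries and settings. In Prkci cKO the log2 change was -0.34 without Prkci cKO replicate 2 (limma adjusted p = 0.0550) and -0.33 against the Pkcz f/f controls alone (0.0963). In Prkcz cKO it was -0.40 without Control replicate 1 (limma adjusted p = 0.0517), -0.43 without Prkcz cKO replicate 2 (0.0799), -0.35 without Prkcz cKO replicate 3 (0.0713) and -0.38 against the Pkcz f/f controls alone (0.107). Also in Prkcz cKO, the adjusted p was 0.0695 without a trend of variance on level and 0.0625 in a fit of the compared groups alone. Across the 21 alternatives the change stayed between -0.42 and -0.33 in Prkci cKO and between -0.49 and -0.35 in Prkcz cKO.

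Within a library, Nfasc was also low relative to the other 8 genes. Set against the mean log2 level of those 8 genes and then against the Control mean, the log2 ratio averaged -0.38 in Prkci cKO libraries (-0.45 to -0.28) and -0.33 in Prkcz cKO libraries (-0.35 to -0.28), with Control libraries between -0.04 and 0.03. Relative to Cntnap1, which encodes Caspr, the ratio averaged -0.41 in Prkci cKO and -0.36 in Prkcz cKO. Relative to Nrcam, whose product is an L1-family adhesion molecule of the node like neurofascin, it averaged -0.45 in Prkci cKO and -0.40 in Prkcz cKO. In Prkcz cKO replicate 3 the ratio to the 8 genes was -0.28, closer to Control than in the other Prkcz cKO libraries, where it was -0.35 in both. Against single genes that replicate was instead the farthest from Control of the Prkcz cKO libraries. Relative to Cntnap1 it was at -0.46, against -0.31 in replicates 1 and 2. Relative to Nrcam it was at -0.43, against -0.38 and -0.39, and relative to Cntn1 at -0.47, against -0.35 and -0.37.

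**Figure D2:**
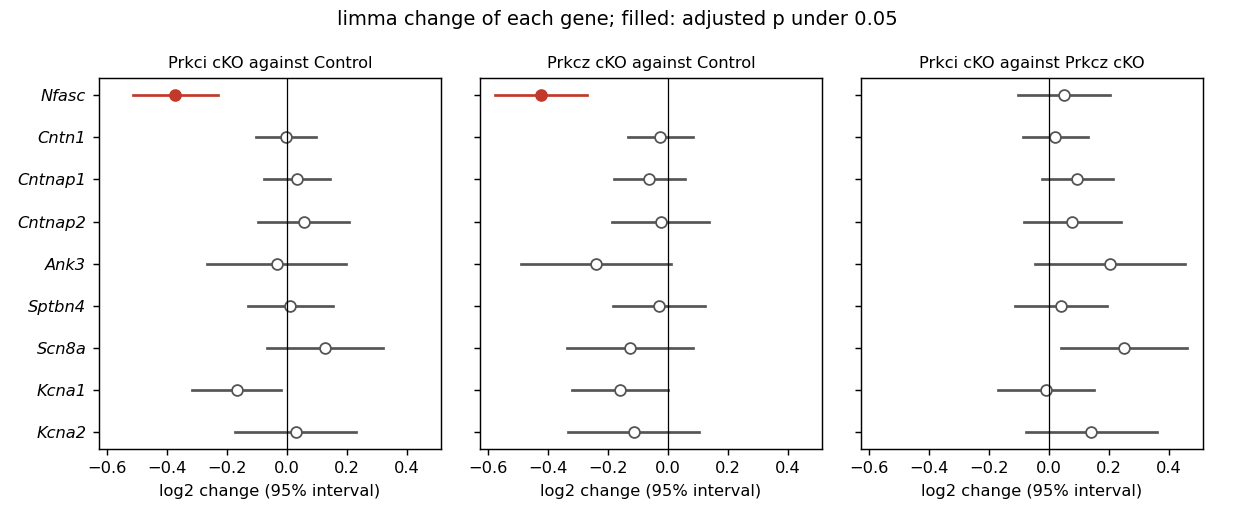
Log2 change (x axis) with its 95% interval for the 9 genes in each comparison, from limma; the filled red points are called at an adjusted p under 0.05. Nfasc is the filled point in both comparisons with Control (-0.37 and -0.42), and no gene is filled between the knockouts.

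The summed levels of oligodendrocyte markers and of immediate early genes were, like Nfasc, lower in every knockout library than in every Control library. The summed level of 12 oligodendrocyte markers, among them myelin genes, was 2907 to 4696 in Prkci cKO libraries and 3948 to 4394 in Prkcz cKO libraries, against 5551 to 8389 in Control libraries. Of these markers 11 of 12 were called lower in Prkci cKO and 4 of 12 in Prkcz cKO, and none of the 12 was below 1 throughout a group. For this and the other marker lists, the share of all tested genes called lower was 1.51% in Prkci cKO and 0.621% in Prkcz cKO. The summed level of 10 neuron markers was 7958 to 8557 in Prkci cKO, 8166 to 8658 in Prkcz cKO and 7911 to 8235 in Control, and limma called 0 of 10 in either comparison (2 in each at an unadjusted p under 0.05). Among all 14330 tested genes, 1730 in Prkci cKO and 2144 in Prkcz cKO were at an unadjusted p under 0.05. Endothelial markers lay on opposite sides of Control in the 2 knockouts, with sums of 162 to 176 in Prkci cKO, 115 to 121 in Prkcz cKO and 142 to 156 in Control; limma called 0 of 6 in Prkci cKO (3 at an unadjusted p under 0.05) and 2 of 6 lower in Prkcz cKO. Astrocyte markers summed to 5199 to 5871 in Prkci cKO, 3768 to 4995 in Prkcz cKO and 5127 to 5698 in Control, with 0 of 6 called in Prkci cKO (3 at an unadjusted p under 0.05) and 1 of 6 called lower in Prkcz cKO. In bulk tissue, fewer cells of a type and less RNA per cell cannot be told apart. The summed level of 10 immediate early genes, which neuronal activity induces, was 411 to 494 in Prkci cKO and 302 to 475 in Prkcz cKO, against 546 to 1156 in Control, and 7 of 10 were called lower in each comparison. Between the Control genotypes, Pkcz f/f against Pkcz f/+, the oligodendrocyte markers had a median log2 change of -0.37, with 12 of 12 below 0. The immediate early genes had a median of 0.60, with 0 of 10 below 0. Limma called none of either list there. At an unadjusted p under 0.05 there were 10 oligodendrocyte markers and 4 immediate early genes, beside 1802 of the 14330 tested genes. Over the 11 libraries, Nfasc correlated with the mean log2 level of the immediate early genes at r = 0.846 and with that of the oligodendrocyte markers at r = 0.820. Within groups, as deviations from the group means, r was 0.569 with glutamatergic neuron markers, 0.396 with endothelial, 0.349 with astrocyte, 0.347 with neuron and 0.302 with oligodendrocyte markers, 0.197 with immediate early genes, and between -0.380 and 0.087 with the other 4 lists. These are descriptions of points that share library and scaling. The part of any of these markers in the Nfasc change was not tested.

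**Figure D3:**
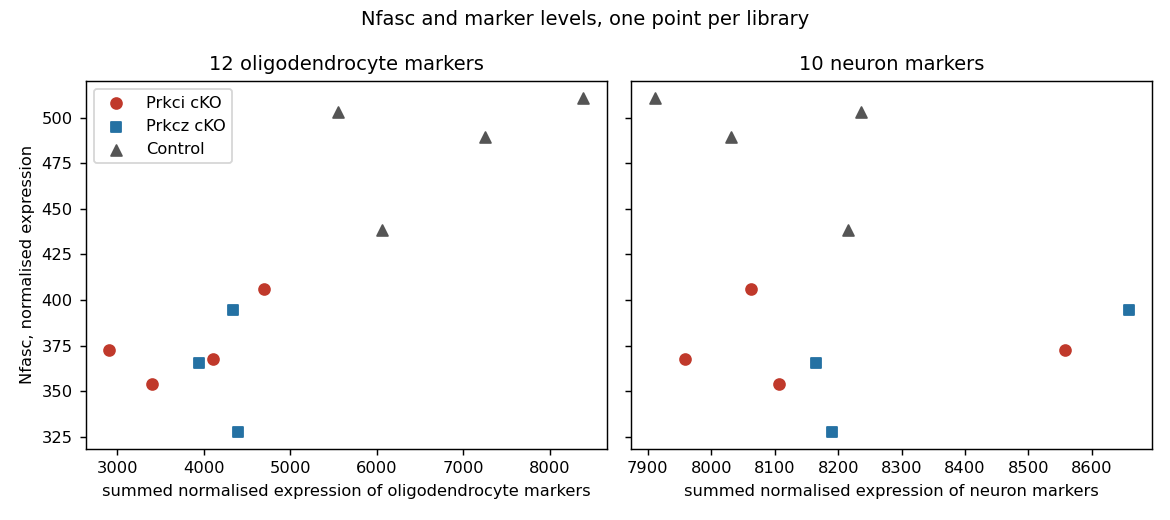
Nfasc (y axis, normalised expression) against the summed normalised expression of 12 oligodendrocyte markers (left) and 10 neuron markers (right), one point per library by group. On the left the 7 knockout libraries lie at 4696 or less and the 4 Control libraries at 5551 or more; on the right knockout and Control libraries overlap.

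The genes of the axonal adhesion molecules of the paranode were not called, and their values overlapped those of Control. Cntn1, the contactin that pairs with Caspr, was 553.8, 600.7, 609.49 and 573.72 in Prkci cKO libraries and 607.73, 570.67 and 548.16 in Prkcz cKO libraries, against 568.72, 590.15, 581.15 and 600.88 in Control libraries. The knockout libraries lay on both sides of the Control range. The log2 change was -0.003 in Prkci cKO (95% interval -0.10 to 0.10) and -0.03 in Prkcz cKO (-0.13 to 0.08), the narrowest intervals of the 9 genes. Cntnap1 was 283.84, 289.44, 299.47 and 318.37 in Prkci cKO libraries and 293.64, 271.55 and 270.19 in Prkcz cKO libraries, against 308.99, 293.43, 287.48 and 273.05 in Control libraries. Again all groups overlapped, with log2 changes of 0.03 (95% interval -0.08 to 0.14) in Prkci cKO and -0.06 (-0.18 to 0.06) in Prkcz cKO. The intervals of Cntn1 and Cntnap1 in both knockouts did not reach the size of the Nfasc change.

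At the juxtaparanode, Kcna1, the Kv1.1 channel subunit, had the second-smallest p of the 9 genes in Prkci cKO. Its normalised expression was 290.75, 266.69, 312.41 and 286.81 in Prkci cKO libraries and 330.05, 286.13 and 259.48 in Prkcz cKO libraries, against 348.98, 317.36, 318.49 and 314.23 in Control libraries. All 4 Prkci cKO libraries lay below the lowest Control library, the highest of them by little, while the Prkcz cKO libraries overlapped the Control range. Non-overlap in this direction was seen for Nfasc and Kcna1 among the 9 genes in Prkci cKO, where 5.32% of tested genes showed it, and for Nfasc alone in Prkcz cKO, where 6.72% did. The log2 change was -0.17 in Prkci cKO (SE 0.0695, limma adjusted p = 0.341) and -0.16 in Prkcz cKO (SE 0.0751, adjusted p = 0.338), so neither was called.

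Its partner Kcna2, which encodes Kv1.2 and forms mixed channels with Kv1.1, was 546.81, 516.64, 577.23 and 541.86 in Prkci cKO libraries and 578.14, 519.86 and 400.81 in Prkcz cKO libraries, against 552.65, 571.94, 551.1 and 468.78 in Control libraries. Prkcz cKO replicate 3 stood lowest and the groups overlapped. The log2 change was 0.03 (95% interval -0.17 to 0.23) in Prkci cKO and -0.11 (-0.33 to 0.10) in Prkcz cKO, and the change in Prkcz cKO was 0.04 without its replicate 3. Cntnap2, the gene of Caspr2, ranged from 100.57 to 124 in Prkci cKO and from 94.01 to 115.35 in Prkcz cKO, against 102.8 to 110.98 in Control, with log2 changes of 0.06 and -0.02, neither called.

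The scaffold and sodium channel genes of the node were not called either. Scn8a, the gene of the sodium channel Nav1.6 of mature nodes, was 497.84, 462.47, 541.96 and 474.98 in Prkci cKO libraries and 478.73, 435.36 and 341.02 in Prkcz cKO libraries, against 457.72, 460.58, 485.63 and 407.37 in Control libraries. The knockout means lay on opposite sides of the Control mean, and each group overlapped the others. Its log2 change was 0.13 in Prkci cKO (95% interval -0.07 to 0.32) and -0.13 in Prkcz cKO (-0.34 to 0.08). The change in Prkcz cKO was 0.01 without its replicate 3, so its side of Control rested on that library. Between Prkci cKO and Prkcz cKO the difference was 0.25 (SE 0.0977, limma adjusted p = 0.250), and without Prkcz cKO replicate 3 the difference was 0.11.

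Ank3, which encodes ankyrin-G, was 318.32, 279, 324.28 and 313.9 in Prkci cKO libraries and 313.45, 290.47 and 210.65 in Prkcz cKO libraries, against 344.83, 322.29, 331.12 and 270.59 in Control libraries. The log2 change was -0.03 (95% interval -0.27 to 0.20) in Prkci cKO and -0.24 (-0.49 to 0.01, limma adjusted p = 0.356) in Prkcz cKO, and in Prkcz cKO it was -0.07 without replicate 3. Sptbn4, the gene of beta-IV spectrin, which links ankyrin-G to actin, ranged from 160.64 to 178.24 in Prkci cKO and from 152.47 to 178.58 in Prkcz cKO, against 154.46 to 188.01 in Control. Its log2 changes were 0.01 and -0.03. Between the Control genotypes, Pkcz f/f against Pkcz f/+, Sptbn4 differed by -0.20 (limma adjusted p = 0.332) and Nfasc by -0.09 (adjusted p = 0.704). Limma called none of the 9 genes there, where 0.154% of tested genes were called. At an unadjusted p under 0.05 there was 1 of the 9, Sptbn4, beside 1802 of the 14330 tested genes.

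Scn8a, Kcna2 and Ank3 varied together across the 11 libraries. The pairwise correlation of their log2 levels was r = 0.924 for Scn8a and Kcna2, 0.946 for Ank3 and Kcna2 and 0.873 for Ank3 and Scn8a, a description over libraries that share depth and scaling. Each also followed the level of long-transcript genes relative to short-transcript genes in the same library, with r = 0.914 for Scn8a, 0.917 for Kcna2 and 0.909 for Ank3. Without Prkcz cKO replicate 3 these values were 0.795 for Scn8a, 0.714 for Kcna2 and 0.624 for Ank3 over 10 libraries. For Nfasc the value was 0.50, and 0.186 without that library. Its longest coding transcript has 9739 bases, and that of Ank3 has 9963. The Nfasc values over all libraries also hold the difference between knockouts and Control. Within groups, as deviations from the group means, Nfasc correlated with Ank3 at r = 0.880, with Kcna2 at 0.828 and with Scn8a at 0.746. The part of this length pattern in the levels of the 9 genes was not tested.

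**Figure D4:**
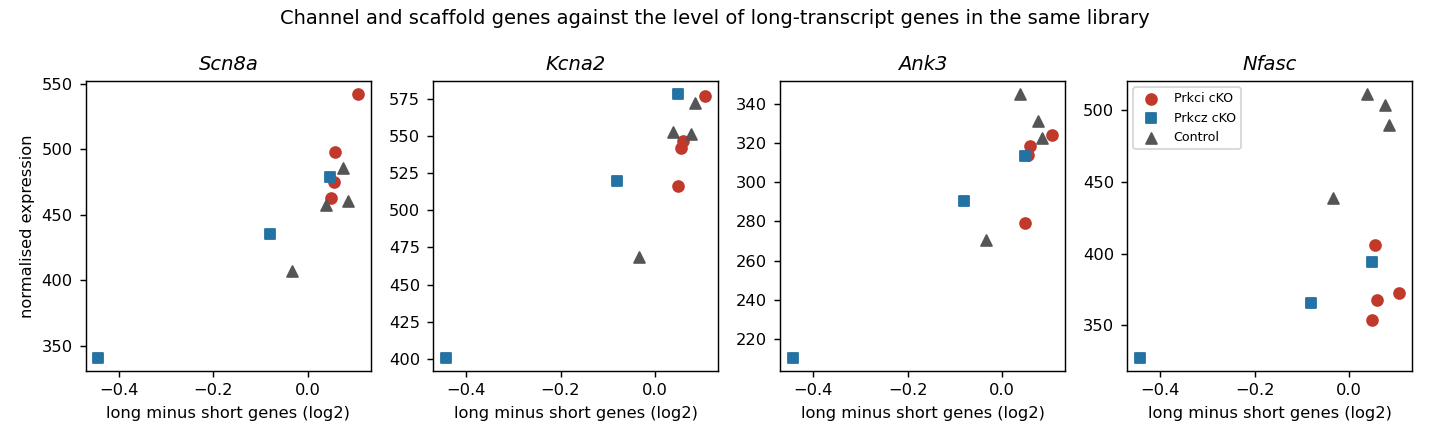
Normalised expression (y axis, not from 0) of Scn8a, Kcna2, Ank3 and Nfasc against the median log2 deviation of long-transcript genes minus that of short-transcript genes in the same library (x axis), one point per library by group. Prkcz cKO replicate 3 lies alone at -0.44 and is lowest in each panel; in the Nfasc panel the Control libraries lie above all knockout libraries.

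The genes whose levels most resembled that of each member over the 11 libraries were taken by Pearson correlation of log2 values among 12132 genes. For Nfasc they were Eif2c4, an Argonaute gene (r = 0.954), the gene model E130308A19Rik (0.953) and Fgfr2, a fibroblast growth factor receptor gene (0.945). Fgfr2, picked here for its likeness to Nfasc and so not independent of it, was itself called lower, with log2 changes of -0.43 in Prkci cKO (limma adjusted p = 0.0113) and -0.43 in Prkcz cKO (adjusted p = 0.0359). For Scn8a they were Mycbp2, Akap6 and Htt (0.988, 0.987 and 0.985), for Kcna2 Usp34, Csrnp3 and Vps13d (0.976, 0.970 and 0.969), and for Ank3 Vps13b, Srcap and Dip2b (0.971, 0.966 and 0.957). The longest coding transcript of each of these 9 genes had at least 8914 bases. For Kcna1 they were Apbb2, Pdpk1 and Sema5a (0.966, 0.954 and 0.916), and for Cntnap2 Zkscan1, Gatad2b and Cadps (0.956, 0.933 and 0.929). For Cntn1 they were Plekha3, Pafah1b1 and Opcml (0.936, 0.924 and 0.923), for Sptbn4 Cep110, Maz and Sparcl1 (0.948, 0.945 and 0.941), and for Cntnap1 Ltbp1, Kiss1r and Lama2 (0.904, 0.899 and 0.872).

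Beyond the 9 genes, 53 other genes of these domains were examined in lists for the node (18), paranode (12), juxtaparanode (12) and axon initial segment (11). In Prkci cKO 9 of the 53 were called lower and 0 higher, and in Prkcz cKO 2 were called lower and 0 higher. Of all tested genes, 1.51% were called lower in Prkci cKO and 0.621% in Prkcz cKO. The median log2 change of the 53 was -0.05 in Prkci cKO and -0.07 in Prkcz cKO, beside 0.002 and -0.006 for all tested genes and 0.01 and -0.11 for the 9 genes. The -0.11 is the change of Kcna2, which was 0.04 without Prkcz cKO replicate 3. That library had the lowest value of each of the 9 genes.

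The paranode list held most of the calls. Of its 12 genes 6 were called lower in Prkci cKO, where 1.51% of tested genes were, with a list median of -0.45. Ugt8a, the enzyme that makes the myelin lipid galactocerebroside, averaged 76.4 ± 12.5 (SD, n = 4) in Prkci cKO and 86.6 ± 8.37 (SD, n = 3) in Prkcz cKO libraries, against 139 ± 14.6 (SD, n = 4) in Control. It fell by 0.86 on the log2 scale in Prkci cKO (limma adjusted p = 0.00132) and by 0.67 in Prkcz cKO (adjusted p = 0.0215), where it was the only paranode gene called. Mag, an adhesion molecule of the myelin layer that faces the axon, averaged 126 ± 25.9 (SD, n = 4) in Prkci cKO and 157 ± 14.2 (SD, n = 3) in Prkcz cKO libraries, against 244 ± 41.9 (SD, n = 4) in Control. Mag fell by 0.95 in Prkci cKO (limma adjusted p = 0.00226), and in Prkcz cKO its change of -0.62 was not called (adjusted p = 0.0708). The other 4 called in Prkci cKO were Opalin (-0.95), a sialoglycoprotein gene of oligodendrocytes, Anln (-0.66), which encodes the septin scaffold anillin, Cd9 (-0.46), a tetraspanin gene, and Jam3 (-0.44), a junctional adhesion molecule gene. Mag, Opalin and Ugt8a are also among the 12 oligodendrocyte markers. The axonal scaffold genes Sptan1 and Sptbn1, which encode spectrins, Ank2, an ankyrin gene, and Epb4.1l3, a protein 4.1 gene, were not called in either knockout.

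On the juxtaparanode list 3 of 12 genes were called lower in Prkci cKO, where 1.51% of tested genes were. Tspan2 was placed there but is known as a tetraspanin gene of oligodendrocytes and myelin, and it fell by 0.88 (limma adjusted p = 9.84e-04) in Prkci cKO and by 0.61 (adjusted p = 0.0315) in Prkcz cKO. Kcnab1, which encodes an auxiliary subunit of Kv1 channels, averaged 97.3 ± 3.19 (SD, n = 4) in Prkci cKO and 135 ± 25.3 (SD, n = 3) in Prkcz cKO libraries, against 133 ± 11.5 (SD, n = 4) in Control. Its log2 change was -0.45 in Prkci cKO (limma adjusted p = 0.0200) and 0.01 in Prkcz cKO (adjusted p = 0.976). The difference between Prkci cKO and Prkcz cKO was -0.46 and not called (limma adjusted p = 0.0692). Across 20 alternatives this difference lay between -0.56 and -0.31. Its limma adjusted p ran from 0.0439, without Prkcz cKO replicate 2, to 0.182, and 1 alternative passed the threshold. Without Prkcz cKO replicate 3, the Kcnab1 change in Prkcz cKO against Control was -0.14. Lgi3, a secreted ligand gene, fell by 0.29 in Prkci cKO (limma adjusted p = 0.0466).

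No gene of the node or axon initial segment lists was called by limma in either comparison with Control (0 of 18 and 0 of 11). At an unadjusted p under 0.05 there were 4 node genes in Prkci cKO and 5 in Prkcz cKO, and 0 of the initial segment list in each. Among all 14330 tested genes, 1730 in Prkci cKO and 2144 in Prkcz cKO passed that cutoff. The list medians were -0.04 in Prkci cKO and -0.06 in Prkcz cKO for the node, and -0.003 and -0.03 for the initial segment. Nrcam had log2 changes of 0.08 in Prkci cKO and -0.02 in Prkcz cKO. Scn4b, a sodium channel beta subunit gene, had the largest change of the node list, with 99.0 ± 25.7 (SD, n = 4) in Prkci cKO and 207 ± 114 (SD, n = 3) in Prkcz cKO libraries, against 213 ± 45.4 (SD, n = 4) in Control. Its log2 change in Prkci cKO was -1.12 (limma adjusted p = 0.0533). The summed level of 8 markers of striatal neurons, which make Scn4b in abundance, was 259 to 507 in Prkci cKO, 539 to 1253 in Prkcz cKO and 553 to 905 in Control. In Prkcz cKO it was 539 in replicate 1, 571 in replicate 2 and 1253 in replicate 3. Limma called 0 of 8 in any comparison. At an unadjusted p under 0.05 there were 8 in Prkci cKO and 0 in Prkcz cKO against Control, and 8 between the knockouts (median -0.94). The part of these cells in the Scn4b values, or in those of Kcnab1 on the juxtaparanode list, was not tested. In Prkcz cKO, Vcan, the versican gene of the nodal matrix, had a log2 change of -0.43 (limma adjusted p = 0.0718). Between Prkci cKO and Prkcz cKO limma called 0 of the 53 genes (16 at an unadjusted p under 0.05, beside 2290 of the 14330 tested genes). The smallest p-values after Kcnab1 were those of Ncan (0.23, limma adjusted p = 0.139), Kcnab2 (-0.23, 0.166) and Scn4b (-0.97, 0.166).

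Mag, Ugt8a and Tspan2 were called in Prkci cKO under all 21 alternatives. The other 6 calls of these lists in Prkci cKO were each lost against the Pkcz f/f controls alone and, with limma adjusted p from 0.0557 to 0.155, without Prkci cKO replicate 2. Without Control replicate 1, Anln (0.0960), Jam3 (0.0617), Lgi3 (0.119) and Kcnab1 (0.0700) also missed the threshold, and without Control replicate 2 Anln (0.0878), Jam3 (0.0544) and Lgi3 (0.109) did. Jam3 (0.0518) and Kcnab1 (0.0677) missed it without Control replicate 4, Kcnab1 without Prkci cKO replicate 1 (0.0610) or 4 (0.0506), and Anln without Prkci cKO replicate 3 (0.0654). Lgi3 kept its call without Control replicate 4 or Prkcz cKO replicate 3 and lost it without any other single library. In Prkcz cKO, Ugt8a was not called without Control replicate 1 (limma adjusted p = 0.0532) or 2 (0.0548) or without Prkcz cKO replicate 2 (0.103) or 3 (0.0689). Tspan2 was not called there without Control replicate 1 (0.0689) or 2 (0.0808), Prkci cKO replicate 1 (0.0518) or 2 (0.0547), or Prkcz cKO replicate 1 (0.0588), 2 (0.116) or 3 (0.0805). Among other settings, without the variance trend Anln (0.0800), Jam3 (0.0506), Lgi3 (0.108) and Kcnab1 (0.0673) in Prkci cKO and Ugt8a (0.0695) and Tspan2 (0.0917) in Prkcz cKO missed the threshold. In a fit of the compared groups alone, Anln (0.0528) and Lgi3 (0.0521) in Prkci cKO and Tspan2 (0.0618) in Prkcz cKO did. With the Pkcz f/f controls alone neither Ugt8a (limma adjusted p = 0.119) nor Tspan2 (0.131) was called in Prkcz cKO. Lgi3 also lost its call with a replicate block (limma adjusted p = 0.0726) and with a common sum that leaves out Rn45s (0.0543). Mag, not called in Prkcz cKO with all libraries, was called there without Prkci cKO replicate 3 (limma adjusted p = 0.0460) or 4 (0.0329).

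**Figure D5:**
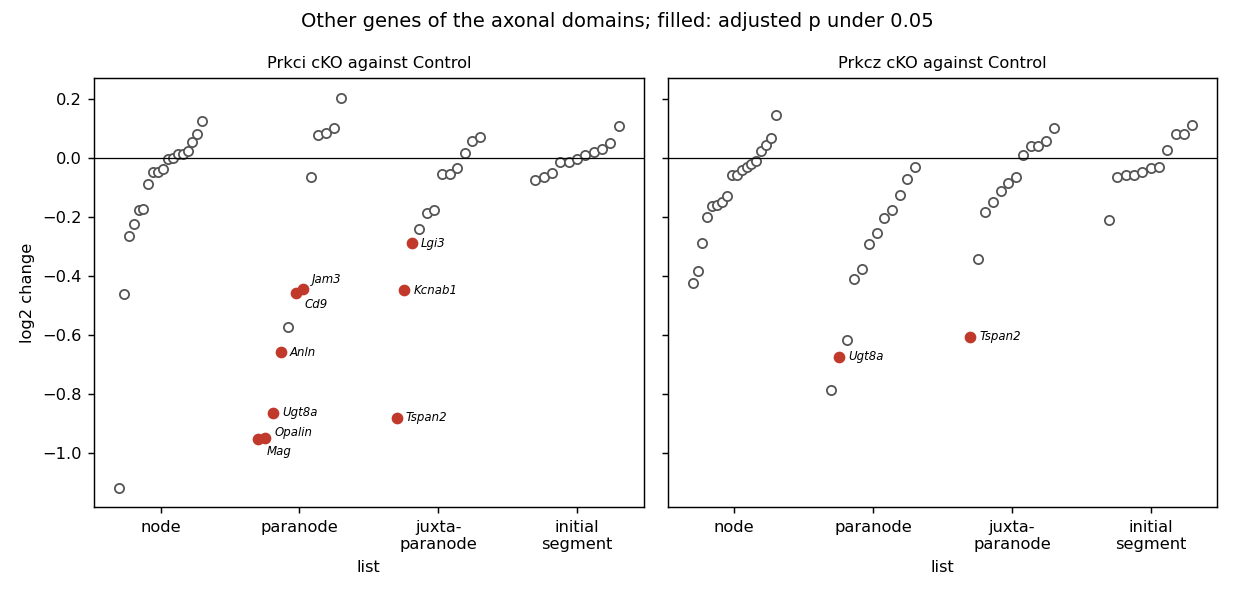
Log2 change (y axis, limma) of the 53 other genes by list (x axis), in Prkci cKO against Control (left) and Prkcz cKO against Control (right); filled red points are called at an adjusted p under 0.05 and named. Of the 12 paranode genes 6 are filled on the left and 1 on the right, and none of the 18 node genes is filled on either side.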

How the data were processed

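Total RNA of cortical punches from 11 mice was sequenced, 1 library per animal, with 100-base paired reads; the labels call the replicates biological. The tools named per the submitters' processing notes are FastQC, Trim Galore, STAR, RSEM and edgeR, with GRCm38; their versions, the annotation, the strand setting and the scaling were not given in the sources used here. One signal value, normalised expression, was deposited by the authors for each gene in each library, not divided by gene length as far as stated. Columns sum to 1021767 to 1082562. Low values lay near whole steps for only 85.9% to 89.2% (within 0.005), so no count test was run, and depths from these steps are estimates. Replicates correlated at r = 0.992 to 0.996.

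A gene was tested if 3 or more libraries had a value of 1 or more (14330 of 16228, all 9 genes included). Values were taken as log2(value + 0.5), which understates the change of low genes, and all 11 libraries entered one limma 3.58.1 fit in R 4.3.3 with a term per group, a variance trend and no covariate (8 residual degrees of freedom). P-values are two-sided, Benjamini-Hochberg adjusted over all tested genes, with 0.05 as the threshold. The script was tested on simulated data. Controls were also coded by genotype. The genes, lists and tests were chosen with earlier results of these data known. Beyond the 9 genes, the text names list genes past the threshold, up to 4 per comparison with the smallest p, and the 3 genes most correlated with each; genes set beside these as partners or families (Nrcam, spectrins) were chosen after their values were seen. Alternatives covered pseudocount, filter, scaling, variance model, groups fitted, the controls of 1 genotype, a block for replicate number and omission of each library; those for the Control genotypes were chosen after seeing the data. Positions are from GENCODE M21 and promoter windows from RefSeq.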

Additional observations from a re-analysis of the deposited data

Results flagged for a closer look

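In Control, replicate 1 stood apart for Kcna1, with a normalised expression of 348.98, against 314.23 to 318.49 in the other Control libraries. The gap to the nearest library was 0.877 of the group's range, above the critical value of 0.829 for 4 samples. It was the only such case among 18 groups of 4 libraries examined (9 genes in Prkci cKO and in Control), and chance flags about 1 in 20 groups. The Kcna1 change in Prkci cKO stayed between -0.21 and -0.13 on the log2 scale when single libraries were left out and was not called under any of the 21 alternatives.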

How the results depend on the processing

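Beside 230 genes called in Prkci cKO against Control, leaving out 1 library gave 95 to 349, and the Pkcz f/f controls alone gave 132; members called were 0 to 1 without 1 library and 0 with those controls. Beside 93 genes called in Prkcz cKO, the range was 13 to 111 without 1 library (13 without Prkcz cKO replicate 2 or 3), with 30 without the variance trend, 29 in a fit of the compared groups alone and 59 with the Pkcz f/f controls alone; under these 3 settings 0 of the 9 genes were called, and 0 to 1 without 1 library. Between the knockouts 43 genes were called, and 10 to 152 without 1 library; between the Control genotypes 22, and 5 to 40. Same-numbered libraries deviated together at r from -0.186 to 0.196, and between the knockouts from 0.047 to 0.154. With 3 or 4 libraries a group, these values cannot decide whether the numbers pair the samples. With a replicate block Nfasc changed by -0.37 in Prkci cKO (limma adjusted p = 0.0172) and -0.43 in Prkcz cKO (0.0369), and 263, 69 and, between the knockouts, 73 genes were called. Some changes turned sign, none of them called. Leaving out Prkcz cKO replicate 3 turned the sign of Cntn1, Cntnap2, Sptbn4, Scn8a, Kcna2 and Kcnab1 in Prkcz cKO against Control. Between the knockouts it turned the sign of Nfasc, Cntn1, Sptbn4, Kcna2 and Opalin. Not all of these were near 0 with all libraries. In Prkcz cKO Scn8a was -0.13 and Kcna2 -0.11, and between the knockouts Kcna2 was 0.14. In Prkci cKO, Cntn1 was 0.00109 with median-of-ratios scaling and -0.0232 to 0.0228 without 1 library, Ank3 was 0.0428 with the Pkcz f/f controls and -0.109 to 0.0132 without 1 library, and Sptbn4 was -0.0348 to 0.0595, Kcna2 -0.0347 to 0.0609 and Cntnap2 -0.00184 to 0.0984. In Prkcz cKO, Sptbn4 was 0.0718 with the Pkcz f/f controls and -0.0797 to 0.0340 without 1 library, Cntn1 was -0.0650 to 0.00934, Cntnap2 -0.0981 to 0.0487, Scn8a -0.230 to 0.0147, Kcna2 -0.228 to 0.0364 and Kcnab1 -0.137 to 0.111. Between the knockouts, Kcna1 was 0.000584 with the replicate block and -0.0899 to 0.0833 without 1 library, Nfasc was -0.0200 to 0.114, Cntn1 -0.0120 to 0.0623, Sptbn4 -0.0225 to 0.0911, Kcna2 -0.00795 to 0.256 and Opalin -0.291 to 0.0273. Apart from settings with fewer libraries, the cause was not tested. With 3 or 4 libraries a group, the 95% intervals set what could be seen: for Ank3 in Prkcz cKO they reach -0.49.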
